A study of Mus musculus with 8 samples.

Results

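The 4 arrays of sorted cardiac Purkinje cells, of 8 arrays in all, were described on their own by the rank of each gene's signal. For each of 18193 named genes the probe set with the highest mean over the 4 Purkinje arrays was taken, and genes were ranked by its median there. The other 4 arrays held sorted ventricular myocytes and served to show where the Purkinje profile differed. Both cell types came from adult male mice carrying the alleles Cntn2-EGFP/ a-MHC-Cre/ floxed-tdTomato on a mixed background of CD1, C57/B6 and 129S1, and the labels name no treatment. Each of 4 hearts gave 1 Purkinje and 1 ventricular sample, so Purkinje replicate 1 and ventricular replicate 1 share a heart, and likewise for replicates 2 to 4. The reporters limit what the groups are: green fluorescence follows Cntn2 transcription, red fluorescence follows past activity of the a-MHC promoter, and the sort gates are not given in the sources used here.

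Purkinje cells are the heart muscle cells of the distal conduction system, which carry the impulse from the bundle branches into the ventricular wall. They are known for fast conduction through connexin 40 channels and for fewer contractile filaments and more glycogen than working muscle cells. They use the same broad machinery as working myocytes, with sarcomeres, calcium stores and mitochondria, so a profile of their own is read best from which family member leads and from the genes that leave the common order.

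Signals are Affymetrix MAS5 intensities in arbitrary units on a linear scale. A rank orders probe-set signals and not transcript numbers, because probe sets bind their targets with unequal strength, so the order of different genes below is an order of signal. A low-signal limit was set at 34.2, the 95th percentile of median signal over 73 olfactory, vomeronasal and taste receptor genes, which heart cells are not known to use. On the Purkinje arrays 11240 genes (61.8%) had a median above it, and 9667 were above it on 4 of 4 arrays. The highest gene read 13883, the gene at rank 100 read 5570 and the next 5545, the gene at rank 1000 read 1196, and the median gene read 64.1. The first 100 genes held 13.8% of the summed signal and the first 1000 held 51.7%.

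**Figure D1:**
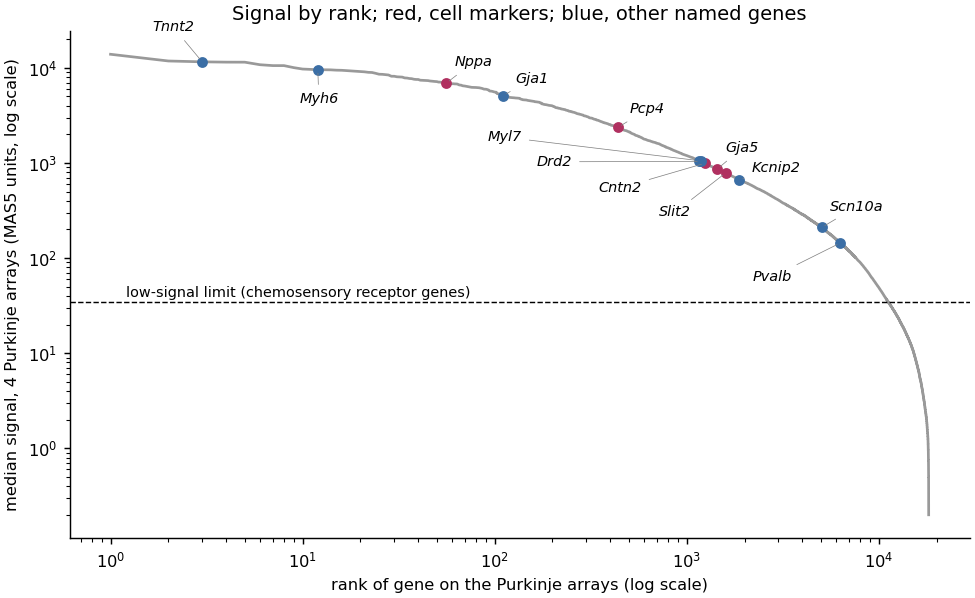
Median signal over the 4 Purkinje arrays (MAS5 units, log scale) against rank (log scale) for 18193 genes. The red points are the 5 Purkinje marker genes, which run from rank 56 (Nppa) to rank 1593 (Slit2), and the dashed line is the low-signal limit of 34.2.

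Signals of 5 Purkinje marker genes and 6 heart muscle genes were read beside the label, and both sets were present. The markers were chosen with earlier results of these data known, and Nppa is also on the atrial list below. The marker ranks were 56 for Nppa, 440 for Pcp4, 1245 for Cntn2, 1445 for Gja5 and 1593 for Slit2, against ventricular ranks of 1594, 10566, 13692, 9960 and 12417. Nppa, which encodes atrial natriuretic peptide, read 3504, 5454, 8348 and 10308 on the Purkinje arrays in order of replicate, and the ventricular arrays read 1000, 746, 942 and 570. Pcp4, which encodes a calmodulin-binding peptide, read 592, 1469, 3278 and 3565 against 15.4, 26.0, 44.5 and 36.1. Both genes were lowest on Purkinje replicate 1 and highest on Purkinje replicate 4, and the cell types did not overlap.

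Cntn2, the adhesion gene whose reporter marked the cells, read 222, 800, 1256 and 1185 against 2.9, 13.3, 11.7 and 24. Gja5, which encodes connexin 40, read 266, 704, 1276 and 1025 against 43.4, 43.6, 30.4 and 21.3. Slit2, which encodes a secreted guidance ligand, read 148, 493, 1291 and 1074 against 16.1, 43.8, 18.6 and 17.9. All 5 markers were lowest on Purkinje replicate 1 and next lowest on replicate 2, and each lay higher on the 4 Purkinje arrays than on any ventricular array. Cntn2 chose the cells, so its contrast is no finding. The median ranks depended on which array was left out. Nppa moved to rank 26 without replicate 1 and to 103 without replicate 3 or replicate 4, Pcp4 to 271 and 794 without replicates 1 and 3, and Slit2 to 1116 and 2567 without replicates 1 and 4.

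The heart muscle genes were level. Myh6, Tnnt2, Tnni3, Actc1, Ryr2 and Myl3 had Purkinje ranks of 12, 3, 29, 19, 142 and 4 and overlapped between cell types. In bulk samples like these, fewer cells of a type and less RNA per cell cannot be told apart, and this holds for each level below.

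**Figure D2:**
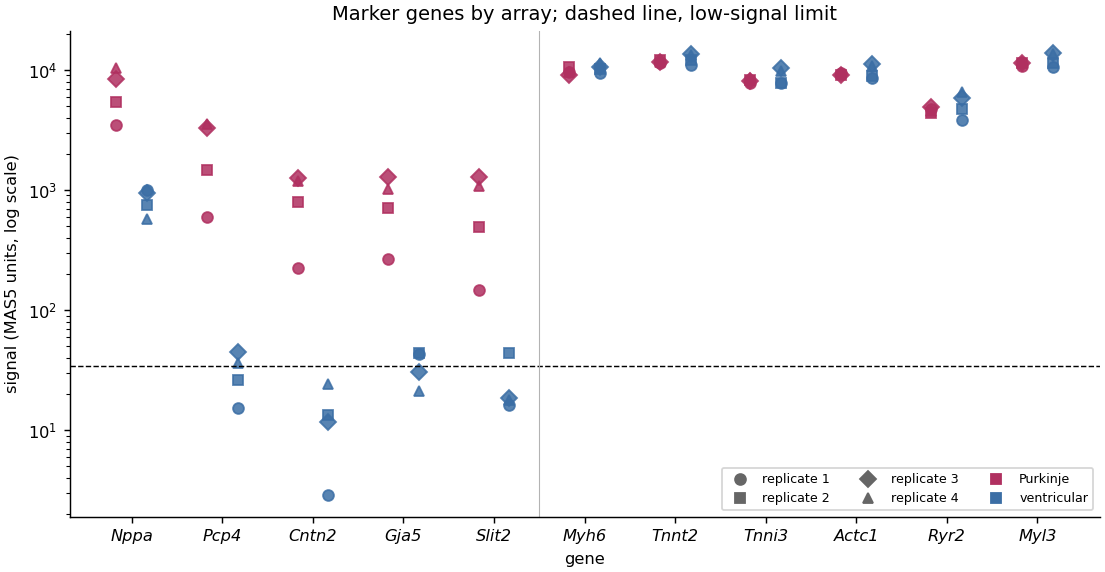
Signal (MAS5 units, log scale) of 5 Purkinje markers and 6 heart muscle genes on each of 8 arrays, with red for Purkinje, blue for ventricular and a symbol for each replicate. The markers are separated between cell types and lowest on Purkinje replicate 1, and the muscle genes overlap.

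Promoter windows of the markers are shown because these genes varied together over the 4 Purkinje arrays. Each holds the 250 bases before the RefSeq start in GRCm38.p6, read in the direction of the gene. Capitals mark matches on either strand to the motif AGGTGT of T-box factors, the motif TNAAGTG of Nkx2-5 or the motif AGATAA of GATA factors.
Nppa: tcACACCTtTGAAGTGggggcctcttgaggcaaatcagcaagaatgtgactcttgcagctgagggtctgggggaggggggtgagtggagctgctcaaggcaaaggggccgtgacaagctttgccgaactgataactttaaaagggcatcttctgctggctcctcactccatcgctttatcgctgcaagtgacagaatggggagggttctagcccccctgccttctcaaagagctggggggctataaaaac
Gja5: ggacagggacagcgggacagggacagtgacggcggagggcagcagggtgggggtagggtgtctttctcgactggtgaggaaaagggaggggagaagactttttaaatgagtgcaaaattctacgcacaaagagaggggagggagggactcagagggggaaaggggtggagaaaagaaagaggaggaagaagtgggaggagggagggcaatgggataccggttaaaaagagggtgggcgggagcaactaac
Cntn2: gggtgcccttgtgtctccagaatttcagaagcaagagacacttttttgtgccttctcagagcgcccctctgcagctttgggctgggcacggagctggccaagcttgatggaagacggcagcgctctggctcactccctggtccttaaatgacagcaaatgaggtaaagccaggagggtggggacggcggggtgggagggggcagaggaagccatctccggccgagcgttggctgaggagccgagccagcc
The Nppa window lies at chr4:148000472-148000721 on the plus strand, that of Gja5 at chr3:97032152-97032401 on the plus strand, and that of Cntn2 at chr1:132542941-132543190 on the minus strand. The Nppa window held 1 AGGTGT and 1 TNAAGTG match side by side, and the windows of Gja5, Pcp4, Cntn2 and Slit2 held 0 matches to any of the 3. Of 32851 RefSeq windows of this length, 11.8% held AGGTGT, 10.1% TNAAGTG and 9.99% AGATAA, so a match is a description of these letters only.

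The top of the Purkinje profile was mitochondrial and contractile. The leading gene was ND5, a mitochondrially encoded NADH dehydrogenase subunit, at 15186, 15119, 12648 and 12116 on replicates 1 to 4. Among the 25 leading genes with an established name were the thick- and thin-filament genes Tnnt2, Myl3, Myl2, Myh6, Tpm1 and Actc1, and the calcium store genes Pln and Atp2a2. They also held the oxygen and fatty acid binding genes Mb and Fabp3, the small heat shock gene Cryab, the adenine nucleotide carrier gene Slc25a4, and the iron storage gene Fth1. The mitochondrial genes Mdh1, Cox6c, Ndufc1, Nnt, Ndufa5 and Vdac1 and the nuclear long noncoding RNA Malat1, at rank 9, were there too. Tnnt2, which encodes cardiac troponin T, stood at rank 3 with 11436, 12087, 11534 and 11594, and Myl3, the ventricular essential light chain gene, at rank 4 with 10870, 11496, 11457 and 11558. Both genes were close on the 4 Purkinje arrays and highest on ventricular replicates 3 and 4, and the cell types overlapped.

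Of the first 100 genes, 39 carried the name of a respiratory chain or ATP synthase subunit, out of 84 such names on the arrays. ATP synthase gave 13 of its 17 named genes, led by Atp5a1 at rank 8. NADH dehydrogenase gave 13 of 37, cytochrome c oxidase 9 of 17 led by Cox6c at rank 15, and cytochrome bc1 and succinate dehydrogenase 2 each, Sdha among them at rank 49. Ribosomal protein genes gave 5 of the first 100, with Rps29 at rank 6.

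The composition was shared with working myocytes. Of the first 100 Purkinje genes 95 were among the first 100 on the ventricular arrays and 99 within the first 200. The exception was Nppa. With limma (adjusted p under 0.05), Nppa was the 1 gene of these 100 that differed between the cell types, against 2.96% of all 12318 genes tested, and with the heart as a block 7 of the 100 differed against 17.1% of all genes. Signals did not overlap between cell types for 1 gene higher and 9 lower in Purkinje cells, against 6.25% and 6.41% of all genes. The median log2 fold change of the 100 was -0.12, against 0.05 for all genes tested. Scaling decides this comparison, since median centring shifted the median of all genes to -0.35 and called 92 of the 100, while quantile normalization shifted it to -0.06 and called 1.

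The choice of probe set also decided places near the top. Of the first 100 genes 70 had more than 1 probe set, and 34 had another probe set more than 10 times lower in signal. Hnrnpab, which encodes an RNA-binding protein, held rank 2 at 11889, 12866, 10965 and 11712, with its other 6 probe sets at medians of 135 to 1516, and fell to rank 276 by the mean of its probe sets. Tpm1 went from rank 17 to 236 in the same way. When probe sets that the design marks as matching several transcripts (suffix _x_at, _s_at or _a_at) were left out, Tnnt2 moved from rank 3 to 1007, Tpm1 to 2200, Slc25a4 from 18 to 4065 and Cryab from 21 to 11315. Myl2, Atp5a1, Actc1 and ND5 depended less on this choice, at ranks 4, 5, 13 and 1 without those probe sets.

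**Figure D3:**
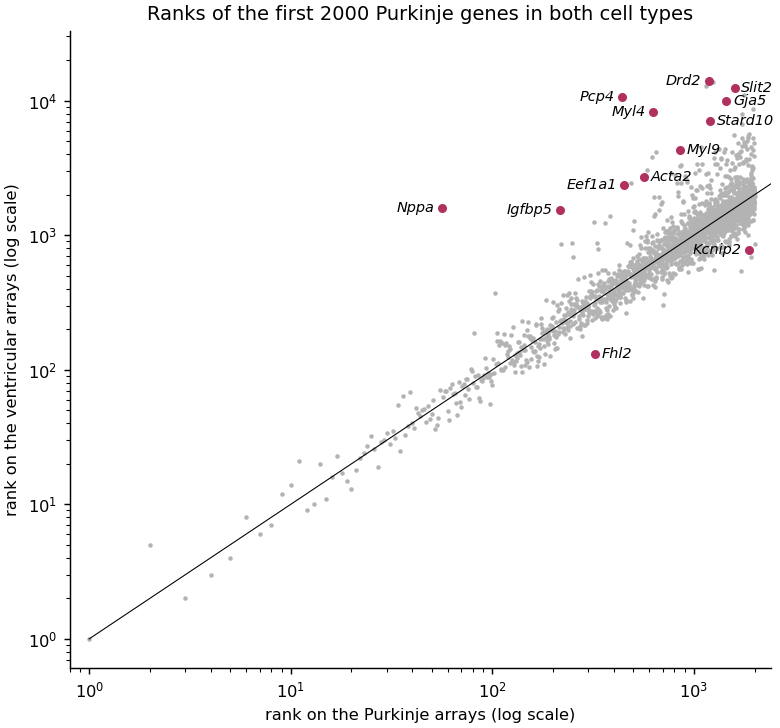
Rank on the Purkinje arrays against rank on the ventricular arrays (both log scale) for genes near the top of the Purkinje order, with the line of equal rank. Most genes lie along the line, and Nppa and Igfbp5 are the 2 genes within Purkinje rank 300 that lie beyond ventricular rank 1000.

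Genes were sought within Purkinje rank 300 that lay beyond rank 1000 on the ventricular arrays, and there were 2, while 0 genes met the reverse rule. Besides Nppa, the other was Igfbp5, which encodes a binding protein for insulin-like growth factors, at rank 217 against 1550. It read 1188, 3638, 3861 and 4093 on the Purkinje arrays against 558, 956, 876 and 863, so Purkinje replicate 1 stood well below the other 3 and still above each ventricular array. Its log2 fold change was 1.85 ± 0.35 (SE; limma adjusted p = 0.0231). The call was lost without any of Purkinje replicates 2 to 4 or ventricular replicates 2 to 4, with an adjusted p of at most 0.0798, and the heart block gave 8.68e-05.

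The spread of log2 signal over the 4 Purkinje arrays was smallest at the top. In all, 80 genes were among the first 100 on 4 of 4 arrays and 117 on at least 1. On 4 of 4 ventricular arrays 85 were among the first 100, and on 8 of 8 arrays 79. The first 50 shared fewer, with 35 genes there on 4 of 4 Purkinje arrays, and the first 500 shared 399. The median SD of log2 signal over the 4 arrays was 0.105 for the first 100 genes and 0.189 for the first 1000. The steadiest genes of the first 1000 were Atp5h (8964, 8977, 8840 and 8975) and Sdhd (5996, 5998, 5921 and 5865), followed by Tpt1, Cd81, Sdha, Rab14, Ccng1 and Ptgr2. Atp5h encodes an ATP synthase stalk subunit and Sdhd a membrane anchor of succinate dehydrogenase.

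Purkinje replicates 1 and 2 resembled each other, as did replicates 3 and 4. Over 18193 genes Spearman's rho was 0.953 between replicates 1 and 2 and 0.947 between 3 and 4, and 0.928 to 0.942 for the other pairs. Purkinje replicate 1 stood closest to ventricular replicate 1 of the same heart, at 0.956, and shared 98 of its first 100 genes with that array. For each of the other 3 Purkinje arrays another Purkinje array was closest. Among the ventricular arrays, replicate 2 was closer to ventricular replicate 1 (0.948) than to ventricular replicate 2 (0.942), and replicate 3 stood at 0.932 to both ventricular replicates 3 and 4. These are descriptions across genes that share the array design, and genes are not independent replicates. The 3'/5' signal ratio of Gapdh, a measure of RNA and cDNA completeness, was 1.24 and 1.28 on Purkinje replicates 1 and 2 and 1.64 and 1.72 on replicates 3 and 4, with 1.23, 1.2, 1.51 and 1.51 on the ventricular arrays. No label names a batch, and the part of this ratio in the differences between hearts was not tested.

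For each of the 12 most variable genes of the first 1000 except Flnc, replicates 1 and 2 lay both above or both below replicates 3 and 4. Myl4, the atrial essential light chain gene, had the largest spread, with 2097, 3964, 1353 and 304 on replicates 1 to 4. Ptgds, which encodes prostaglandin D synthase, read 5603, 4705, 1224 and 921, and Ly6e, a membrane-anchored surface protein gene, 2449, 2309, 682 and 568. The lipid-binding protein gene Fabp5, the matrix protein gene Mgp and the mitophagy gene Bnip3 were likewise high on replicates 1 and 2. Opposite to them, Mpped2, a phosphodiesterase-like gene, read 440, 1176, 2480 and 2716 and Ptms, the parathymosin gene, 599, 821, 1880 and 1919. Pcp4, Sdc4 (a cell surface proteoglycan gene) and Igfbp5 were lowest on replicate 1. Flnc, which encodes a muscle filamin, followed neither order, at 1939, 540, 1226 and 1622.

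**Figure D4:**
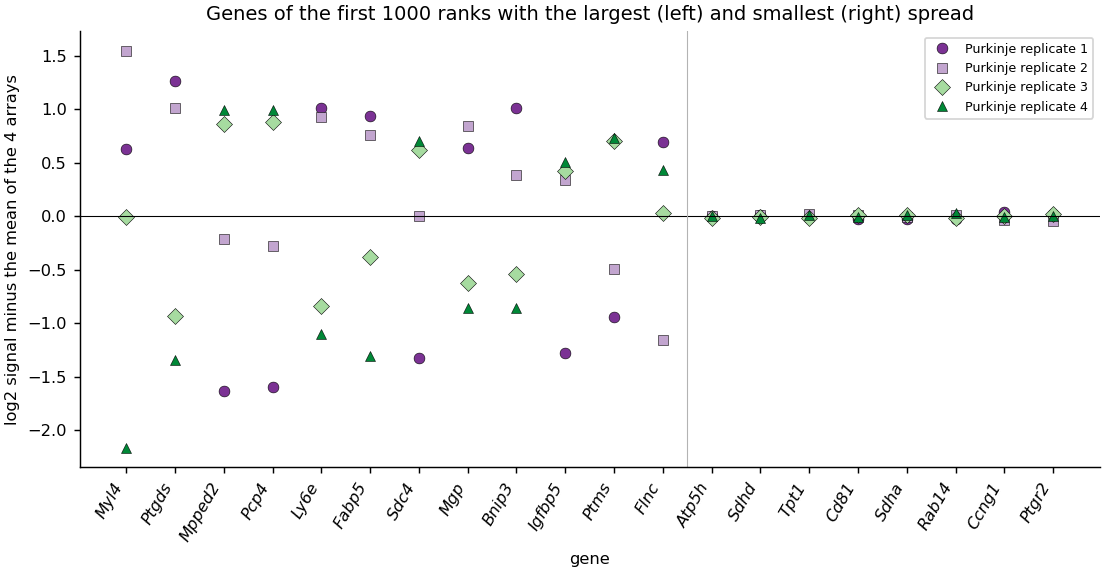
Deviation of log2 signal from the mean of the 4 Purkinje arrays for the 12 genes of the first 1000 with the largest SD and the 8 with the smallest, with a symbol for each replicate. Replicates 1 and 2 lie both above or both below replicates 3 and 4 for each of the 12 variable genes but Flnc, and for Igfbp5 replicate 1 alone lies far from the rest.

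Marker genes of other cells gave signal, and their sums differed between the arrays. Whether other cells or the sorted cells themselves gave this signal was not tested. Summed over 17 endothelial genes, the signal was 17822, 15729, 10371 and 7838 on the Purkinje arrays against 12258, 6315, 4221 and 4514, so the groups overlapped through ventricular replicate 1. All 17 genes had medians above the low-signal limit in both cell types, led by Fabp4, a fatty acid binding gene, and Cdh5, the endothelial cadherin gene. Over 16 fibroblast genes the sums were 7479 to 11092 against 3291 to 6801, and over 14 smooth muscle and pericyte genes 13503 to 18285 against 10439 to 12927. These 2 groups of sums did not overlap. Leukocyte genes summed to 759 to 2092 against 690 to 1094, with 12 of 17 above the limit, and erythrocyte and platelet genes to 1589 to 2948 against 1239 to 2627, with 2 of 8 above it. Schwann cell and neuron genes summed to 1338 to 1518 against 679 to 878, with 8 of 17 above the limit. Limma called 12 of the 76 tested genes of these lists and the atrial list higher and 0 lower, and 52 higher and 2 lower with the heart block, against 1.94% higher and 1.02% lower of all genes tested, and 9.64% and 7.48% with the block. Beside genes named elsewhere, the called ones included the endothelial genes Aqp1, Egfl7 and Cdh5, the fibroblast gene Col3a1, and Dbh and Uchl1 of the Schwann cell and neuron list. The 3 endothelial calls were each lost without Purkinje replicates 1 to 3 or ventricular replicates 2 to 4 (limma adjusted p at most 0.138). Those of Dbh and Uchl1 were lost without Purkinje replicate 3 or ventricular replicates 2 to 4 (at most 0.104).

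Atrial myocyte genes were the list with the greatest contrast. Their sum over 10 genes was 11101, 18808, 14231 and 15391 on the Purkinje arrays and 3483 to 4471 on the ventricular arrays, with Nppa the leader on 4 of 4 Purkinje arrays and Pam, a peptide-amidating enzyme gene, on 4 of 4 ventricular arrays. Myl7, the atrial regulatory light chain gene, read 1740, 3920, 377 and 4.7, and Sln, which encodes the calcium pump inhibitor sarcolipin and was chosen after its values were seen, 338, 1266, 61.2 and 2.2. On the ventricular arrays Myl7 read 10.2, 282, 21.7 and 0.9. Myl7, Sln and Myl4 were thus highest on Purkinje replicate 2, where Nppa was next to lowest, and lowest on replicate 4, where Nppa was highest. On replicate 4 Myl7 and Sln lay under the low-signal limit. Where these marker sums move with a gene below, their part in its level was not tested.

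Among the contractile genes, the leaders were those of the working ventricle on each of 8 arrays: Myh6 for the myosin heavy chains, Myl3 for the light chains, Tnnt2 for the troponins, Tpm1 for the tropomyosins, Actc1 for the actins and Cryab for the Z-disc, titin and M-band list. Myh7, the slow myosin gene, stood at rank 250 against 693, with 2058, 3341, 3576 and 3954 on the Purkinje arrays and 1483, 2987, 1572 and 2099 on the ventricular arrays. Myh6 exceeded it 2.42- to 4.65-fold in signal on the Purkinje arrays. Lmod2, a thin filament length regulator, was next after Tpm1 and lower 2.07- to 2.31-fold. By the mean of all probe sets Myl2, Tnni3, Lmod2 and Csrp3 led the light chain, troponin, tropomyosin and Z-disc lists, so these 4 leaders depend on the probe set.

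None of the 6 called contractile genes led its list, and they included genes that smooth muscle also uses. Myl9, a smooth muscle regulatory light chain gene, read 1061, 1425, 1290 and 1912 on the Purkinje arrays and 304, 192, 257 and 244 on the ventricular arrays, with no overlap. Acta2, smooth muscle actin, read 2014, 1768, 1589 and 2043 against 515, 419, 542 and 257, also with no overlap. Pdlim3, an actinin-binding Z-disc gene, read 464, 404, 684 and 503 against 177, 152, 134 and 98.0. Their log2 fold changes were 2.50 ± 0.20 for Myl9, 2.15 ± 0.22 for Acta2 and 1.88 ± 0.23 for Pdlim3 (SE; limma adjusted p = 0.000858, 0.00157 and 0.00492), and they passed with each array left out. Cspg4, the pericyte proteoglycan gene, was higher beside them at 165, 221, 240 and 247 against 64.0, 61.7, 83.2 and 62.8 (1.68 ± 0.21, limma adjusted p = 0.0053).

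Myl1, the fast skeletal and embryonic light chain gene, read 882, 2133, 2414 and 2228 against 584, 978, 436 and 475, with an overlap through Purkinje replicate 1 and ventricular replicate 2. It passed in limma at 1.61 ± 0.33 (SE; adjusted p = 0.0314) and lost the call without Purkinje replicates 2, 3 or 4 or ventricular replicates 3 or 4 (at most 0.11). Tpm3 passed at 1.30 ± 0.30 (adjusted p = 0.0439) and lost the call without 6 of the 8 arrays, Purkinje replicates 1 to 3 and ventricular replicates 2 to 4 (at most 0.129). Fhl2, a Z-disc and titin-binding LIM gene, was lower, at 4428, 3274, 2611 and 2156 against 5154, 4646, 5776 and 5646. Its log2 fold change of -0.81 ± 0.19 (limma adjusted p = 0.0453) was lost without Purkinje replicates 2 to 4 or ventricular replicates 2 to 4 (at most 0.132). Over the Z-disc, titin and M-band list 1 of 19 tested genes was higher and 1 lower, and 1 and 5 with the heart block. With that block 4 of 10 myosin heavy chain, 6 of 9 light chain, 1 of 6 troponin, 3 of 9 tropomyosin and 3 of 9 actin genes were higher, where the unblocked fit gave 0, 2, 0, 1 and 1. In the same order 0, 0, 0, 2 and 1 were lower with the block, where the unblocked fit gave 0 in each. Over all genes tested 1.94% were higher and 1.02% lower, and 9.64% and 7.48% with the block.

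**Figure D5:**
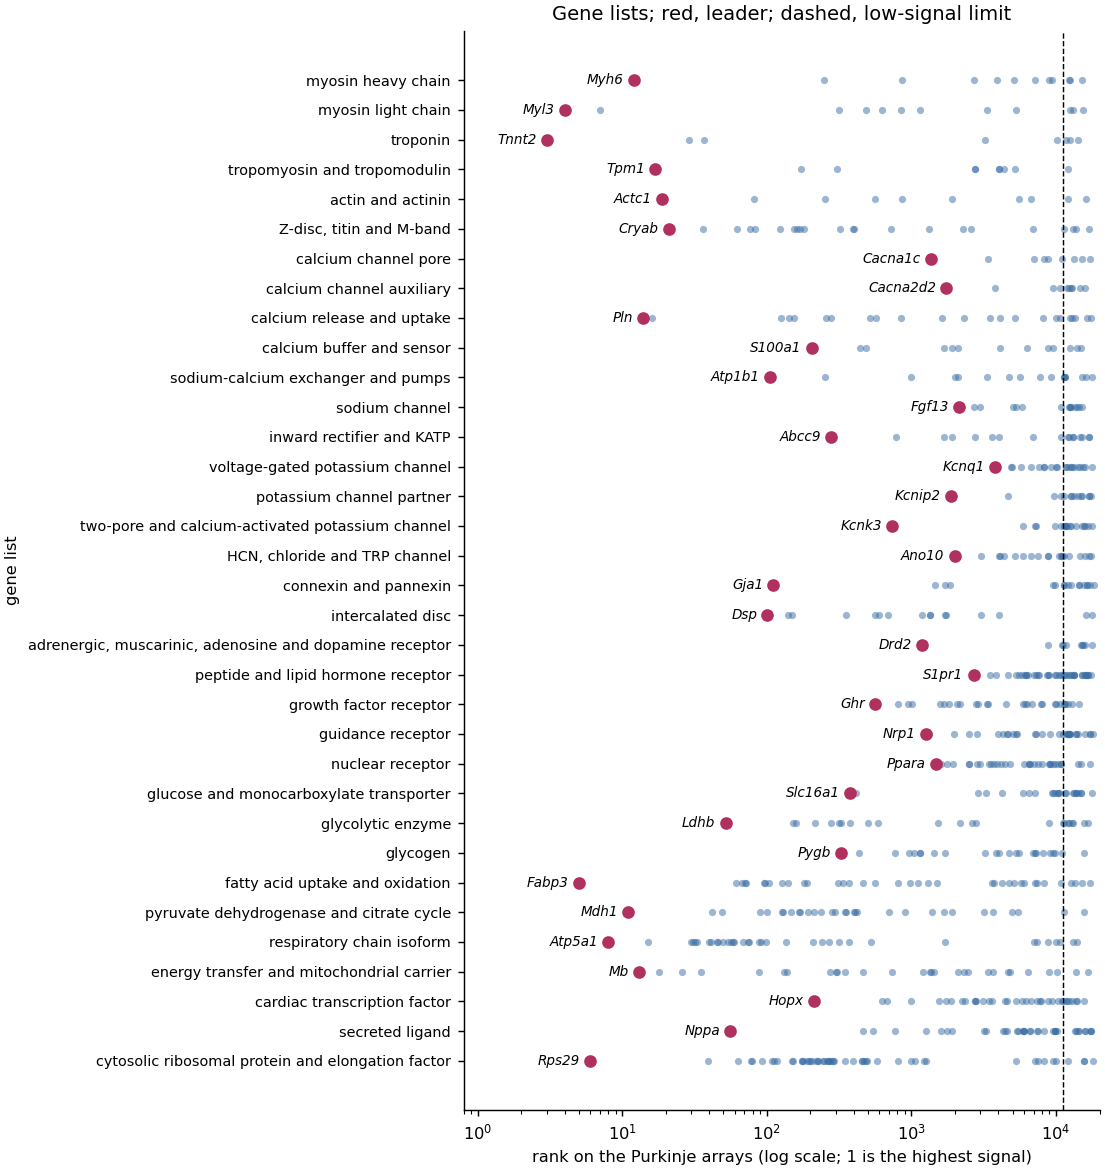
Rank on the Purkinje arrays (log scale) of every member of 34 gene lists that was on the arrays, with the leading member in red and the low-signal limit as a dashed line. Leaders of the contractile lists lie within rank 21, and those of the receptor lists between ranks 562 (Ghr) and 2688 (S1pr1).

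For calcium release and uptake the leading signals were Pln, which encodes the pump inhibitor phospholamban, and Atp2a2, the calcium pump gene. Pln read 9279, 9727, 9379 and 9670, and Atp2a2 10713, 9732, 8566 and 9109. Atp2a2 was ahead on Purkinje and ventricular replicates 1 and 2 and Pln on replicates 3 and 4. The order was thus the same on both arrays of each heart, though the signals were nearly equal on Purkinje replicate 2. The source of this order was not tested. Casq2 (rank 125), Ryr2 (rank 142) and Hrc (rank 153), genes of calcium storage and release, were lower in the list, and 18 of 23 genes were above the low-signal limit. Of 20 tested, 0 were higher and 1, the junctional membrane gene Jph2, was lower, and 2 and 3 with the heart block. The shares of all genes were 1.94% higher and 1.02% lower, and 9.64% and 7.48% with the block. Jph2 read 1030, 790, 605 and 747 against 1370, 1438, 1240 and 1149, with no overlap. Its call (limma adjusted p = 0.0427) was lost without Purkinje replicates 2 to 4 or ventricular replicates 2 to 4 (at most 0.112).

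The calcium sensor list was led on 8 of 8 arrays by S100a1, an EF-hand protein gene known in heart muscle, at 4781, 3350, 3830 and 3981. On the Purkinje arrays Pcp4 was next, and by median it led the list without the suffixed probe sets. The S100a1 signal exceeded it 8.08-fold on the array where Pcp4 was lowest and 1.12-fold where it was closest. Pvalb, which encodes the calcium buffer parvalbumin, read 44.9, 208, 328 and 80.9 and lay under the low-signal limit on each ventricular array, at 2.9 to 8.2. The pump and exchanger list was led by Atp1b1, a sodium pump beta subunit gene, at 4662, 4338, 6003 and 6231, with Slc8a1, the sodium-calcium exchanger gene, at rank 996. Atp1b2, another beta subunit gene, read 254, 386, 356 and 359 against 152, 59.0, 109 and 112, with no overlap. Its log2 fold change was 1.71 ± 0.28 (SE; limma adjusted p = 0.0137, and 0.0558 without Purkinje replicate 3). Of the sensor genes 2 of 9 were higher and 0 lower, and 4 and 1 with the heart block. Pvalb, 1 of the 2, entered the test only through its Purkinje signals. Of the pump and exchanger genes 1 of 12 was higher and 0 lower, and 4 and 0 with the block. Among all genes 1.94% were higher and 1.02% lower, and 9.64% and 7.48% with the block.

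Among voltage-gated calcium channels, Cacna1c, the L-type pore gene, had the highest pore signal on 8 of 8 arrays, at 947, 877, 964 and 848 on the Purkinje arrays. It was lower there than on the ventricular arrays, at 1166, 1697, 1356 and 1284, with no overlap. Its log2 fold change was -0.59 ± 0.14 (limma adjusted p = 0.0482), a call lost without any array but ventricular replicate 1 (at most 0.125). On the Purkinje arrays it exceeded Cacna1h, a T-type pore gene, 2.26- to 9.93-fold, and Cacna1h read 95.4, 373, 328 and 375 with Purkinje replicate 1 far below the others. On the ventricular arrays Cacna1h read 4.4 to 31.6, under the low-signal limit, and so did Cacna1g, another T-type pore gene, at 5.1 to 15.7 against 23.4, 124, 111 and 216 on the Purkinje arrays. Both passed as higher in limma (adjusted p = 0.0146 and 0.0243). Their ventricular means lay under the filter, so they entered the test only through their Purkinje signals and these p-values are no support. Cacna1h lost the call without Purkinje replicate 3 (0.062), and Cacna1g without Purkinje or ventricular replicates 2, 3 or 4 (at most 0.0892). The auxiliary subunits changed leader within the Purkinje group. Cacna2d1 led on replicates 1 and 2, at 722 and 694, and Cacna2d2 on replicates 3 and 4, at 1273 and 942. Cacna2d2 read 146 and 497 on replicates 1 and 2 and 84.0 to 111 on the ventricular arrays, where Cacna2d1 led 4 of 4. The lead of Cacna2d2 by median passed to Cacna2d1 without Purkinje replicate 3 or 4.

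The sodium channel list held pores, beta subunits and fibroblast growth factor homologous factors, 7 of 15 above the low-signal limit, and its leader differed between arrays. Scn4b led on Purkinje replicate 1, Fgf13 on replicates 2 and 3 and Fgf12 on replicate 4, while Scn4b led on 3 of 4 ventricular arrays. Fgf12, an intracellular modulator of sodium channels, read 129, 408, 522 and 825 against 10.3, 23.7, 41.4 and 9.2, with no overlap. Fgf13, its relative, read 546, 594, 596 and 606 against 696, 1034, 904 and 1000, with no overlap (limma adjusted p = 0.052, and 0.00529 with the heart block), and Scn4b, a beta subunit gene, read 657, 550, 278 and 164 against 1127, 1400, 950 and 917. Scn10a, the gene of the sodium channel pore Nav1.8, was the pore with the highest rank, 5048, at 82.6, 187, 268 and 232 against 31.2, 35.9, 38.3 and 20.6. Of this list 2 of 8 tested genes were higher and 1, Scn4b, lower, and 4 and 2 with the heart block. For all genes the shares were 1.94% and 1.02%, and 9.64% and 7.48% with the block. Fgf12, 1 of the 2 higher genes, entered the test only through its Purkinje signals. The Scn4b call (limma adjusted p = 0.0453) was lost without Purkinje or ventricular replicates 2, 3 or 4 (at most 0.12). Fgf12 was lowest, and Scn4b highest, on the Purkinje array where Cntn2 was lowest.

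Potassium channels showed both stable and shifting leaders. Abcc9, the regulatory subunit gene of the ATP-sensitive channel, led the inward rectifier list on 8 of 8 arrays, at 3350, 5316, 3125 and 2456, and is also a gene of pericytes, whose summed markers are given above. Kcnj5, a subunit gene of the acetylcholine-activated channel, followed at 924, 1652, 1546 and 1383, and overlapped the ventricular arrays. Kcnk3, a leak channel gene, exceeded the next of its list, Kcnk1, 8.52- to 16.4-fold in signal on the Purkinje arrays. The voltage-gated list had a low leader, Kcnq1, the slow delayed rectifier pore gene, at rank 3804, with Kcnd2, a transient outward pore gene, ahead on Purkinje replicate 1 and Kcnh2, the rapid delayed rectifier pore gene, on replicate 2.

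Kcnip2, the partner subunit gene of the transient outward channel, read 712, 533, 661 and 678 against 1156, 1089, 2122 and 2155. It was lower with no overlap, at -1.27 ± 0.23 on the log2 scale (SE; limma adjusted p = 0.0208). The call was lost without Purkinje replicates 2 or 3 or ventricular replicates 3 or 4 (at most 0.0746). In the same direction Kcnd2 read 291, 213, 130 and 78.6 against 295, 338, 438 and 419, which did not pass (adjusted p = 0.078, and 0.0182 with the heart block). Kcnj8, the pore gene that pairs with Abcc9, was higher at 717, 743, 598 and 322 against 320, 208, 250 and 174 (1.29 ± 0.28, limma adjusted p = 0.0371). Its call was lost without Purkinje replicates 1 to 3 or ventricular replicates 2 to 4 (at most 0.122). With the heart block the inward rectifier list went from 1 higher and 0 lower to 1 and 2 of 10. The voltage-gated list went from 0 and 0 to 3 and 1 of 13. The partner list went from 0 and 1 to 1 and 1 of 4, and the leak and calcium-activated list from 0 and 0 to 2 and 0 of 10. All genes tested went from 1.94% higher and 1.02% lower to 9.64% and 7.48%.

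Among connexins, Gja1, which encodes connexin 43, kept the highest signal on 8 of 8 arrays, at 4959, 4924, 5304 and 5273 on the Purkinje arrays and 5562, 5697, 6544 and 6723 on the ventricular arrays. The cell types did not overlap, yet the difference did not pass in limma (-0.26 ± 0.09, adjusted p = 0.14, and 0.0459 with the heart block). Gja1 exceeded Gja5 4.16- to 18.7-fold in signal, the most on Purkinje replicate 1. Gjc1, which encodes connexin 45, read 644, 787, 691 and 770 against 296, 370, 216 and 215, with no overlap, and ranged less widely over the Purkinje arrays than Gja5. With Gja5 it made 2 higher of 9 connexins and pannexins and 0 lower, and 3 and 1 with the heart block. The same fits called 1.94% of all genes higher and 1.02% lower, and 9.64% and 7.48% with the block. Dsp, the desmoplakin gene, led the intercalated disc list just outside the first 100 genes, and 0 of the 14 genes tested there passed in either direction (1 higher and 3 lower with the heart block).

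Among the small-molecule transmitter receptors analysed, the leader differed between the cell types. Of 24 adrenergic, muscarinic, adenosine and dopamine receptor genes listed, 10 were among the genes analysed, and the other 14 could not be ranked. Of those 10, 4 lay above the low-signal limit. Drd2, the dopamine D2 receptor gene, led on 4 of 4 Purkinje arrays at 120, 315, 1761 and 1830, lower on replicates 1 and 2 as the markers were, and lay under the limit on each ventricular array at 8.7 to 19.2. Adra1b, the alpha-1B adrenergic receptor gene, led on 4 of 4 ventricular arrays at 45 to 59.6 and read 60.4 to 81.6 on the Purkinje arrays.

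Among 40 peptide and lipid hormone receptor genes, S1pr1, a sphingosine phosphate receptor gene also used by endothelium, led on Purkinje replicates 1 to 3 at 462, 468 and 713. Ramp1, a receptor partner for calcitonin gene-related peptide, led on replicate 4 at 390. On the ventricular arrays F2r led once and Agtr1a, an angiotensin receptor gene, on the other 3. S1pr1, Ptgfr and Lpar1 passed as higher (3 of 25 tested, 0 lower, and 10 and 1 with the heart block), where 1.94% of all genes were higher, and 9.64% with the block. The 3 calls were each lost without Purkinje replicates 2 or 3 or ventricular replicates 2, 3 or 4 (at most 0.128). The endothelial sums were also higher on the Purkinje array of each heart, and their part in these calls was not tested.

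Guidance receptors changed leader inside the Purkinje group. Nrp1, a semaphorin and growth factor receptor gene, led on replicates 1 and 2 at 1358 and 1223, and Neo1, which encodes the netrin receptor neogenin, on replicates 3 and 4 at 997 and 1359. Ephb1, an ephrin receptor gene, read 136, 454, 962 and 837 against 68.5, 36.8, 67.3 and 43.6, with no overlap. Its log2 fold change was 3.18 ± 0.52 (SE; limma adjusted p = 0.014), and the call was lost without Purkinje replicate 3 or ventricular replicate 4 (at most 0.0568). With Nrp2 and Unc5b, 3 of 24 tested guidance receptors passed as higher and 0 as lower, and 10 and 1 with the heart block. The shares of all genes higher were the same 1.94% and 9.64%. Nrp2 and Unc5b also lost the call without Purkinje replicate 3 or ventricular replicate 4 (at most 0.0814). Of the growth factor receptors 0 of 27 and of the nuclear receptors 0 of 30 passed (7 higher and 2 lower, and 4 and 2, with the heart block).

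Among secreted ligands Nppa led on 4 of 4 Purkinje arrays and exceeded Adm, the adrenomedullin gene, 1.51- to 5.5-fold in signal. Nppb, the brain natriuretic peptide gene, led on 3 of 4 ventricular arrays and read 2168, 826, 1526 and 1459 on the Purkinje arrays against 2774, 1216, 2525 and 2374. It was lower in each heart, yet overlapped (limma adjusted p = 0.289, and 0.00301 with the heart block), so the natriuretic peptide genes Nppa and Nppb did not move together. Sema3a, a guidance ligand gene, read 114, 346, 1227 and 1069 against 23.8, 39.9, 28.9 and 24.8. With Slit2, Slit3, Sema3c and Nppa it made 5 higher of 30 tested and 0 lower, 12 and 3 with the heart block. Of all genes 1.94% were higher, and 9.64% with the block. Sema3c and Slit3 lost the call with at least 1 array left out (limma adjusted p at most 0.126). Slit3 also entered the test only through its Purkinje signals.

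In the metabolic lists the leading genes were those of working myocytes. Each called member of the fatty acid and citrate cycle lists was lower in the main fit, and the number called depended on the scaling. Fabp3, the heart fatty acid binding protein gene, led its list at rank 5 with 12209, 12385, 10166 and 10724, overlapping the ventricular arrays. Of 34 tested fatty acid genes 7 passed as lower and 0 as higher: Acadm, Decr1, Slc25a20, Eci1, Echs1, Cpt2 and Eci2, all of mitochondrial fatty acid transport or oxidation. Acadm, a medium-chain dehydrogenase gene, read 4446, 4291, 3953 and 3850 against 5086, 5698, 5812 and 6160 (-0.46 ± 0.10, limma adjusted p = 0.0331). The changes were small, from -0.46 to -0.73, and the 7 calls were each lost without Purkinje replicate 3 or ventricular replicates 2, 3 or 4 (highest adjusted p 0.0746 to 0.138). With the heart block 3 were higher and 14 lower. Of all genes tested 1.02% were lower, and 7.48% with the block.

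Mdh1, cytosolic malate dehydrogenase, led the pyruvate dehydrogenase and citrate cycle list at 10134, 9984, 8614 and 9274. Sucla2, Dld and Pdhx passed as lower (3 of 30, 15 with the heart block, 0 higher in both). Pdhx, which encodes a pyruvate dehydrogenase subunit, read 330, 373, 308 and 249 against 502, 646, 618 and 631. All 3 calls were lost without Purkinje replicate 3 or ventricular replicates 2, 3 or 4 (highest adjusted p 0.076 to 0.14). The respiratory chain list gave 2 lower of 34, Uqcrc2 and Uqcrfs1 of cytochrome bc1, both lost without Purkinje replicates 2 to 4 or ventricular replicates 2 to 4, and Uqcrc2 also without Purkinje replicate 1 (at most 0.13). The median log2 fold changes of the fatty acid, citrate cycle and respiratory chain lists were -0.30, -0.31 and -0.13, against 0.05 for all genes tested. Quantile normalization left 1, 1 and 0 lower calls, with medians of -0.16, -0.15 and -0.03 against -0.06 for all genes. Median centring gave 22, 27 and 27, with medians of -0.70, -0.71 and -0.54 against -0.35. In the main fit 1.02% of all genes were lower, and 7.48% with the block.

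Gpt, alanine aminotransferase, was the 1 lower gene of any list that passed with each array left out. It read 137, 146, 160 and 87.0 against 268, 405, 439 and 456, with no overlap, at -1.57 ± 0.24 (SE; limma adjusted p = 0.0108). Ckm, muscle creatine kinase, read 1875, 1604, 1513 and 1454 against 2234, 2170, 2874 and 2802 and passed at -0.64 ± 0.14 (adjusted p = 0.0337), a call lost without Purkinje replicates 2 to 4 or ventricular replicates 2 to 4 (at most 0.12). With Slc25a13, a mitochondrial aspartate and glutamate carrier gene, 3 of 27 genes of the energy transfer list were lower and 0 higher, and 10 and 1 with the heart block, where 1.02% of all genes were lower, and 7.48% with the block.

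Glucose handling was mixed. The glycolytic list was led by Aldoa on Purkinje replicates 1 and 2 (7545 and 7650) and by Ldhb, a lactate dehydrogenase subunit gene, on replicates 3 and 4 (7210 and 6948). Of 21 tested 1 was higher, the neuronal enolase gene Eno2, and 0 lower (2 and 6 with the heart block). The Eno2 call was lost without Purkinje replicates 2 or 3 or ventricular replicates 3 or 4 (limma adjusted p at most 0.0694). Among transporters Slc16a1, a lactate and pyruvate carrier gene, and Slc2a4, the insulin-responsive glucose carrier gene, led at ranks 377 and 414. Slc16a1 read 2954, 2586, 2662 and 2204 against 3410, 3849, 3829 and 3972, with no overlap, and passed as lower (-0.54 ± 0.11, limma adjusted p = 0.0331). Its call was lost without Purkinje or ventricular replicates 2, 3 or 4 (at most 0.112). Slc16a12, a carrier gene of the same family, read 53.9, 360, 556 and 376 against 8.8 to 20.0, under the low-signal limit on each ventricular array. Counted against that limit it was at least 7.38-fold higher (limma adjusted p = 0.0108, and 0.054 without Purkinje replicate 3). Slc16a12 and Eno2 entered the test only through their Purkinje signals, so their calls are no support. With Slc16a7 of the same family, 2 of 17 transporter genes were higher and 1 lower, and 2 and 3 with the heart block. Both higher calls were lost without Purkinje replicate 3, and their highest limma adjusted p with 1 array left out was 0.106. The glycogen list, led by the brain-type phosphorylase gene Pygb on 8 of 8 arrays, gave 0 higher and 2 lower of 23 tested, Ugp2 and Gbe1, which are enzymes of glycogen synthesis (2 and 10 with the heart block). Both calls were lost without Purkinje replicates 2 to 4 or ventricular replicates 2 to 4 (at most 0.12). Beside the counts of these 3 lists, 1.94% of all genes were higher and 1.02% lower, and 9.64% and 7.48% with the block.

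Transcription factors were led by Hopx, a homeodomain gene, on Purkinje replicates 2 to 4 and by Tbx20 on replicate 1, and the same held on the ventricular arrays. Irx1, an Iroquois homeobox gene, read 233, 315, 373 and 514 against 94.8, 113, 122 and 87.3, with no overlap (1.74 ± 0.25, limma adjusted p = 0.00815). Irx2 read 182, 479, 596 and 597 against 65.1 to 112 (2.28 ± 0.36, adjusted p = 0.0112, and 0.0551 without Purkinje replicate 3). With Irx5, Tbx3, Tbx5 and Heyl these made 6 higher of 32 tested and 0 lower, 9 and 4 with the heart block. Of all genes 1.94% were higher, and 9.64% with the block. Irx1 alone of the 6 passed with each array left out, and the others lost the call (limma adjusted p at most 0.126). Quantile normalization called 3 of the list higher. The list's median of 0.33 turned to -0.07 under median centring. Tbx3 read 258, 258, 126 and 127, high on replicates 1 and 2, opposite to Irx2.

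The translation list was led by Rps29 on 8 of 8 arrays. Of its 50 tested genes 2 passed, Eef1a1 higher and the muscle ribosomal protein gene Rpl3l lower, where 2.96% of all genes passed. Eef1a1, a translation elongation factor gene, read 2040, 2055, 3010 and 2540 against 986, 550, 504 and 557. The difference of 1.93 ± 0.22 on the log2 scale (limma adjusted p = 0.00286) passed with each array left out, on its 1 probe set. Rpl3l read 1382, 1007, 952 and 581 against 1742, 2220, 2163 and 2456 (-1.18 ± 0.23, adjusted p = 0.0241) and lost the call without Purkinje replicates 2 or 3 or ventricular replicates 2 to 4 (at most 0.0924).

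Over the gene lists outside other cell types, 609 members were tested and 62 passed, 38 higher and 24 lower, against 1.94% and 1.02% of all genes tested. The members were chosen with earlier results known, so these shares are a description. With the heart block 113 were higher and 102 lower, against 9.64% and 7.48% of all genes, and these included all 62. Of the 62, 16 passed with each array left out in turn, and Gpt was the only one of them that was lower. The other 15 were Acta2, Drd2, Eef1a1, Fgf12, Gja5, Gjc1, Irx1, Myl9, Nppa, Pcp4, Pdlim3, Pvalb, Scn10a, Sema3a and Slit2, each higher in 4 of 4 hearts. The smallest of their log2 fold changes was 1.43 ± 0.20 (Gjc1). Drd2 and Pvalb lay under the low-signal limit on each ventricular array and, counted against it, were at least 17.3-fold and 3.67-fold higher. Pcp4 lay under it on 2 of 4 ventricular arrays and, with those set to the limit, was at least 48.2-fold higher. These 15 had a limma adjusted p from 0.000858 (Myl9) to 0.0108 (Sema3a). Drd2, Fgf12 and Pvalb among them entered the test only through their Purkinje signals, so their p-values are no support.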

How the data were processed

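RNA of sorted Purkinje cells and ventricular myocytes was measured on 8 Mouse 430 2.0 arrays, after amplification with a whole-transcriptome kit per the labels' protocols. The deposited intensity values are MAS5 signals on a linear scale per the submitters' processing notes, and were not rescaled here. For each probe set the authors' deposited table also lists a Purkinje to ventricular ratio and a p-value without adjustment, neither used here. Of 45101 probe sets, 34958 carried 1 gene symbol, 932 several and 9211 none in the platform annotation, and those with several or none were left out, as were 64 control probe sets. This gave 18193 genes.

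For the profile the probe set with the highest mean over the Purkinje arrays was kept. For the comparison each gene was represented by the probe set brightest on average over 8 arrays on the log2 scale, 10 values of 0 were set to 0.1, and 12318 genes above the 40th percentile (log2 of 4.31) entered a linear model in limma 3.58.1 (R 4.3.3, moderated with a mean-variance trend), adjusted by Benjamini-Hochberg at 0.05. That filter took the mean over both groups. Cacna1g, Cacna1h, Cntn2, Drd2, Eno2, Fgf12, Pvalb, Slc16a12 and Slit3 had ventricular means under 4.31 and entered through their Purkinje signals. On simulated data with 12318 genes the fit recovered 45 of the 100 set to change 2-fold and 87 of the 100 set to change 4-fold. It also called 8 genes not set to change. The simulated noise was independent between genes and arrays, without the shared deviations of arrays given below. These counts therefore do not give the recovery on the real arrays. Arrays give no counts, so the 4 arrays in each group limit the precision. P-values of the main fit rest on the spread over the 4 hearts within each cell type and do not use the pairing by heart.

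The replicate number marks the heart, per the series' design, and same-numbered arrays deviated together (correlations of 0.38, 0.23, 0.27 and 0.27). Arrays of hearts 1 and 2, or of hearts 3 and 4, also did with other numbers (0.09 to 0.22), and arrays across those pairs went opposite ways (-0.30 to -0.14). The fit without the heart as a block is the main one, and the blocked fit is given for the counts it moves. Genes named in the text were drawn from the 25 leading genes, leaders and called members of each list with up to 5 further members, the 12 most and 8 least variable genes of the first 1000, genes within rank 300 far from their ventricular rank, and the 5 markers. Members, lists and tests were chosen with earlier results of these data known. A fold against a ventricular signal under the low-signal limit is given as a bound, with that signal set to the limit. Alternatives covered scaling, filters, probe set choice, the block and each array left out.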

Additional observations from a re-analysis of the deposited data

Results flagged for a closer look

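In 114 groups of 4 arrays, the gap between the most distant array and its nearest neighbour was compared with Dixon's 95% critical value, and 8 groups exceeded it. Chance alone flags about 1 group in 20. Of these, 3 lay in the Purkinje group on replicate 1: Igfbp5 at 1188, Cacna1h at 95.4 and the highest hybridization control at 16660, each below the other 3 arrays. The other 5 were ventricular. Slit2 stood apart on ventricular replicate 2 at 43.8 and Slit3 on the same array at 19.9, both above the others. Stard10 was low on ventricular replicate 1 at 61.4, and Eef1a1 was high there at 985.8. Cspg4 was high on ventricular replicate 3 at 83.2.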

How the results depend on the processing

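Of 12318 genes, 365 passed, 239 higher and 126 lower. The heart block gave 2108 (1187 and 921), quantile normalization 155 (119 and 36), median centring 2607 (222 and 2385), and no filter left 73 lower. Leaving out 1 array gave 38 to 957 in all, 37 to 647 higher and 1 to 310 lower, with 38 without Purkinje replicate 3 and 957 without ventricular replicate 1. List members higher, 38, became 113 with the block and 15 to 60 with 1 array left out. Those lower, 24, became 102 with the block, 6 by quantile normalization, 227 by centring, 12 without the filter and 1 to 52 with 1 array left out. Of the first 100 genes 1 passed, 7 with the block, 92 by centring and 1 to 3 with 1 array left out. The block lost none of the 62 list calls. The first 100 kept 55 genes without the suffixed probe sets and 73 by the mean of probe sets, and 94 to 97 with 1 Purkinje array left out. Of 41 lists 27 kept their leader by the mean of probe sets, 28 without the suffixed probe sets and 37 to 38 with 1 array left out. By the mean of probe sets, leaders that changed included Atp1b1 (to Fxyd1), Fabp3 (to Etfa), Mdh1 (to Mdh2), Atp5a1 (to Cox6c) and Rps29 (to Rpl38). Without the suffixed probe sets they included S100a1 (to Pcp4), Ghr (to Bmpr1a), Ldhb (to Pgam2) and Hopx (to Tbx20). Of 733 fold changes of 46 genes under the alternatives, 0 changed sign and 0 gained a call. The genes were chosen from these same arrays with their differences known, so the kept signs are no independent check. With 1 array left out 113 of the fold changes missed the threshold. Under the other settings 30 did, most often quantile normalization (13) and no filter (8). The causes were not tested. Signals near the low-signal limit have no firm order, and the number of arrays limits what can pass.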

Other observations

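Stard10, a lipid transfer gene, read 305, 588, 1462 and 1687 on the Purkinje arrays and 61.4, 98.5, 95.7 and 98.1 on the ventricular arrays, lowest on Purkinje replicate 1 as the markers were. Its log2 fold change was 3.23 ± 0.46 (SE; limma adjusted p = 0.00833), higher in 4 of 4 hearts, and it passed with each array left out. Sdc4, a cell surface proteoglycan gene, read 551, 1378, 2116 and 2241 against 245 to 351, also with no overlap (2.23 ± 0.37, limma adjusted p = 0.0152, and 0.0599 without Purkinje replicate 3). Col1a2, a fibrillar collagen gene of fibroblasts, differed little between the Purkinje arrays, at 411, 434, 532 and 438 against 231, 159, 205 and 216 (1.17 ± 0.17, limma adjusted p = 0.00989).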
